A study of Mus musculus with 4 samples.

Results

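The DNA replication machinery was followed here as 47 genes whose products license replication origins, unwind DNA, copy it and package it again. The members were the rows of the authors' deposited table whose gene symbol stood on a list of replication proteins. All 47 were found among the 53715 genes of the table, and all 47 were among the 16588 genes that passed the filter on low counts, with no member under 103 counts in any library. The cells were CD4+CD8+ double-positive thymocytes, sorted for RNA sequencing from the thymus of C57BL/6 mice aged 6 to 8 weeks. The wild-type group (WT, 2 libraries) was labelled only as WT. The knockout group (KO, 2 libraries) had the genotype LCKCre/+ Srsf1fl/fl, in which Cre recombinase under an Lck promoter, active from early thymocytes on, removes floxed sequence of Srsf1. The labels do not say whether the WT mice carried Cre or floxed alleles, nor whether the replicates came from separate animals, so p-values measure only the spread between these libraries, which may be technical.

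Replication in animal cells is prepared before S phase, when the origin recognition complex with Cdc6 and Cdt1 loads the ring of Mcm2 to Mcm7 onto DNA, a step called licensing. In S phase the kinase Cdc7 with Dbf4, together with Cdc45 and the GINS complex, turns the ring into an active helicase, and primase and the replicative polymerases follow behind it. Many of these genes are classic targets of E2F transcription factors, and in the thymus they are most active in the dividing blasts that precede the small resting double-positive cells.

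The libraries held from 35862730 to 37033180 counts each. In counts scaled to the library total (CPM), 1 count was worth 0.0270 to 0.0279. Srsf1, the targeted gene, stood at 23.5 and 21.5 RPKM (CPM per kilobase of gene length) in WT and at 8.70 and 8.53 RPKM in KO. Its log2 fold change was -1.39 (SE 0.09, edgeR quasi-likelihood adjusted p = 2.91e-06). A gene is said to have risen or fallen in KO where its adjusted p, taken over all 16588 tested genes, was under 0.05. Of the 9 markers of double-positive thymocytes 6 rose and 0 fell, and their summed level was 7841 to 8155 CPM in WT and 11190 to 11570 CPM in KO. Of 4 markers of mature single-positive thymocytes 3 fell (Ccr7, S1pr1 and Klf2) and 0 rose, with sums of 141.0 to 167.2 CPM in WT and 87.6 to 88.7 CPM in KO. In every library the double-positive sum was far above the mature one. The lists hold different genes, so this order does not measure the share of cells at each stage. Double-negative markers summed to 100.7 to 109.2 CPM in WT and 151.4 to 182.0 CPM in KO, with 1 of 7 tested called, Notch3, which rose. B cell markers summed to 231.0 to 237.7 CPM in WT and 356.9 to 362.7 CPM in KO, where Cd79b and Ighm rose among 5 tested. Gamma delta T and NK markers summed to 35.9 to 43.5 CPM in WT and 57.0 to 63.8 CPM in KO, where Trdc rose and Ncr1 had 0 counts. Sums of these 3 lists were thus higher in both KO libraries. Myeloid markers (S100a8 at 0), erythroid markers and thymic epithelial markers (Krt5 and Foxn1 at 0) had no call, and their sums in the 4 libraries were at most 22.01, 5.26 and 13.4 CPM. The part of these shifts in the results on replication genes was not tested. In bulk RNA, fewer cells of a type and less RNA per cell cannot be told apart.

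The E2F-type sequence of replication gene promoters is shown first, because 6 of the 10 members called carry it near an annotated start. These 10 were 7 members that rose, where 6.63% of all tested genes rose, and 3 that fell, where 7.89% fell. The search covered RefSeq promoter windows of build GRCm38.p6, from 250 bases before to 50 bases after each annotated start. A window was found for 38 of the 47 members, among them all 7 that rose and 2 of the 3 that fell (not Mcm4). The only Timeless window surrounds an annotated start that lies 6001 bases into the gene. Of the 29 members with a window and no call, 9 held a match as well (31.0%). The spellings searched were TTTCCCGC, TTTGGCGC, TTTCGCGC and TTTGCCGC, on both strands. Below, each match stands in capitals with 9 bases on either side, read 5′ to 3′ on the strand of the gene, and the offset is that of the first capital from the annotated start.
Orc1 (lower in KO), chr4:108579418-108579443, plus strand, offset -27: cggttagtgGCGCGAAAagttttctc
Cdt1 (lower in KO), chr8:122568038-122568063, plus strand, offset 32: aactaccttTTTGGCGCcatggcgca
Mcm6 (higher in KO), chr1:128359795-128359824, minus strand, offset -110: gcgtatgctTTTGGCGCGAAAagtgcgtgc
Mcm6 (higher in KO), chr1:128359736-128359761, minus strand, offset -47: ttggacgggTTTGGCGCgaagtagct
Mcm7 (higher in KO), chr5:138172032-138172057, minus strand, offset -165: tttcgaaccGCGGGAAAcagggtgtc
Mcm7 (higher in KO), chr5:138171851-138171876, minus strand, offset 16: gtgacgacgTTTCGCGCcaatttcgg
Pold3 (higher in KO), chr7:100121469-100121494, minus strand, offset 17: gcgaagctgTTTCCCGCcggcgggag
Lig1 (higher in KO), chr7:13278843-13278868, plus strand, offset 26: ccaaagtgcGCGCGAAAtctgtgtgg

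The first Mcm6 line holds 2 overlapping matches, one on each strand. The 250 bases before the Mcm6 start, shown whole because they hold the most matches among the called members and no annotated GENCODE exon, lie at chr1:128359706-128359955 on the minus strand.
Mcm6 upstream: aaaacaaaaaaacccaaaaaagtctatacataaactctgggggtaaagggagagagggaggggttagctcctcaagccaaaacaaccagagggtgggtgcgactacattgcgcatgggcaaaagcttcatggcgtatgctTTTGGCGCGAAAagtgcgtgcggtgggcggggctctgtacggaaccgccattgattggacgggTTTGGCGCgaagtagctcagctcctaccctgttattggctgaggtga

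Matches were thus found near the start of genes that fell and of genes that rose. Among the 38 members with a window 15 held a match (39.5%), against 704 of 27025 genes in the whole promoter table (2.61%) and 454 of 9559 tested genes with a window (4.75%). Matches were more frequent among the members than in either wider set. The 15 were Orc1, Orc3, Cdc6, Cdt1, Mcm3, Mcm5, Mcm6, Mcm7, Gins3, Pola1, Pold1, Pold3, Pole2, Rfc3 and Lig1. Of these 15, 4 rose, 2 fell and 9 were not called, with a median log2 fold change of 0.26. Of the 23 members with a window and no match, 3 rose, 0 fell and 20 were not called, with a median of 0.20. Timeless is among these 3, and the sequence at the start of its gene was not searched. The CCAAT box (CCAAT on either strand) was found in 22 of the 38 members (57.9%) and in 41.1% of the promoter table, and 8 members held both motifs (21.1%, against 1.26%). A match describes letters in a window and says nothing on binding, and the matched Lig1 and Mcm7 starts lie 1543 and 539 bases from the start of the GENCODE gene.

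**Figure D1:**
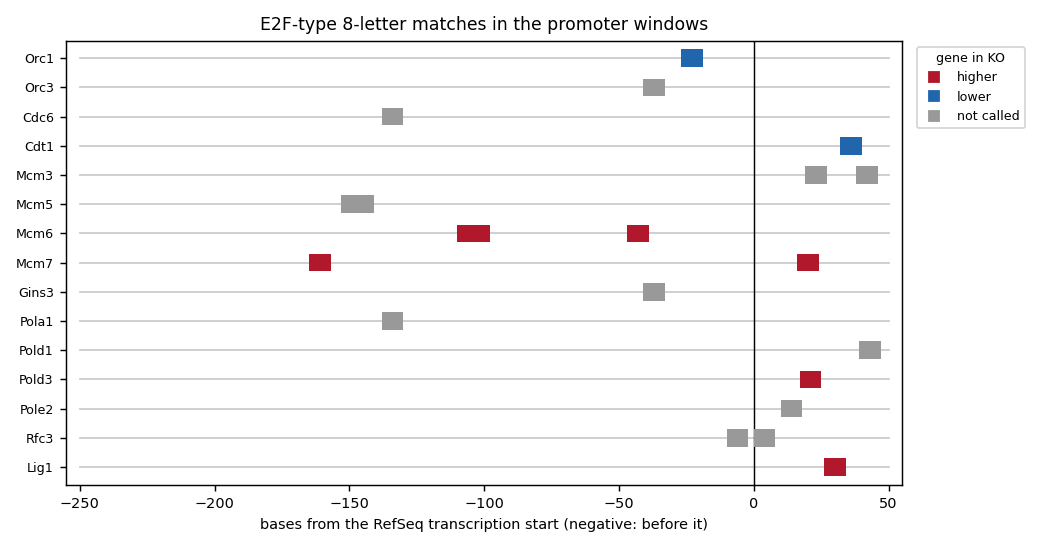
Positions of E2F-type matches (8-base boxes) in the promoter windows of the 15 members that hold one, in bases from the RefSeq start. Boxes of genes that rose (red), fell (blue) or were not called (grey) stand on both sides of the start, from offset -165 in Mcm7 to offset 39 in Pold1.

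KO was compared with WT to ask which transcripts differed where Srsf1 was deleted. At an adjusted p under 0.05 (edgeR quasi-likelihood test, Benjamini-Hochberg adjustment over all 16588 genes), 7 of the 47 replication genes rose, which is 14.9% against 6.63% of all tested genes, and 3 fell, which is 6.38% against 7.89%. The genes that rose were Orc4, Mcm6, Mcm7, Prim1, Pold3, Lig1 and Timeless, and those that fell were Orc1, Cdt1 and Mcm4. The other 37 were not called. Positive fold changes numbered 34 of 47 (72.3%, against 50.2% of all tested genes), and the median log2 fold change was 0.25 against 0.0022 over all tested genes (0.09 without KO replicate 1). Both KO libraries lay above both WT libraries in 22 members (46.8%, against 27.8% of all tested genes) and below both in 6 (12.8%, against 28.1%), and the groups overlapped in 19. Leaving out WT replicate 1 or KO replicate 1 left 4 members that rose, leaving out KO replicate 2 gave 18, and limma on the deposited RPKM values gave 2.

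**Figure D2:**
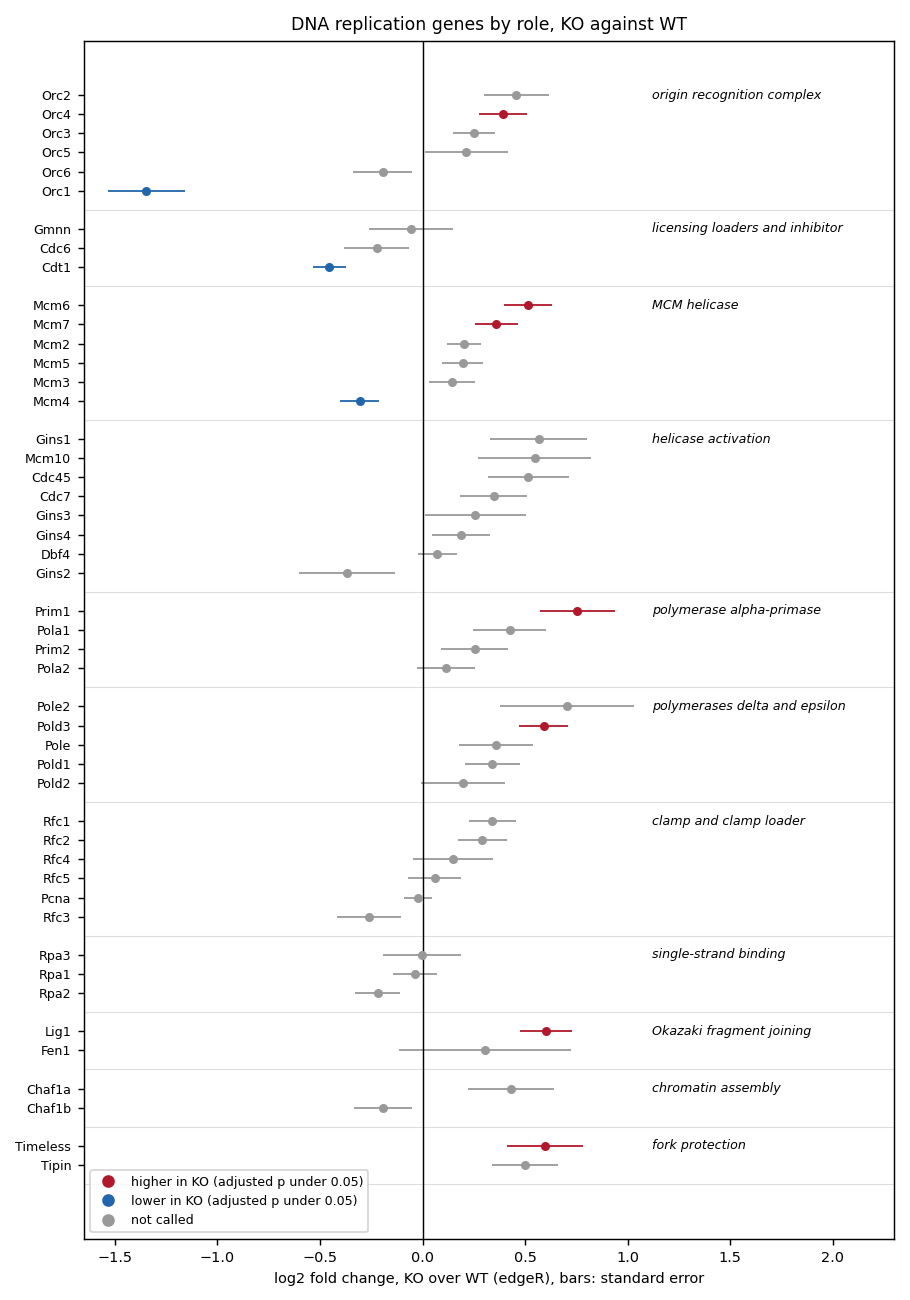
Log2 fold change of each of the 47 replication genes, KO over WT, with the standard error as a bar and genes grouped by role. Genes that rose are red, genes that fell are blue and genes not called are grey, and Orc1 stands apart at -1.35 while the other members lie between -0.45 and 0.75.

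The 3 genes that fell all act in licensing, as do Orc4, Mcm6 and Mcm7 among the genes that rose. The share of members that fell, 6.38%, was not above the 7.89% of all tested genes. Orc1, an ATPase subunit of the origin recognition complex, showed the largest change of all 47 members. Orc1 (ENSMUSG00000028587.18, chromosome 4, 108579423 to 108614833, plus strand, GRCm38) stood at 7.92 and 7.03 RPKM in WT and at 2.96 and 2.91 RPKM in KO. The groups were far apart and the KO libraries nearly equal, so that KO kept 0.393 of the WT level (log2 fold change -1.35, SE 0.19, edgeR adjusted p = 0.000582). The call was kept under all 14 alternatives. The antisense transcript Gm12743 overlaps Orc1 exons and had 118 and 126 counts in WT and 186 and 53 in KO, against 988 and 893, then 381 and 369, for Orc1.

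The remaining origin recognition genes did not follow Orc1. Orc4, a further ATPase-family subunit, rose (ENSMUSG00000026761.12, chromosome 2, 48902824 to 48950277, minus strand). It stood at 9.003 and 7.42 RPKM in WT and at 11.3 and 10.2 RPKM in KO, and the groups did not overlap (log2 fold change 0.39, SE 0.12, edgeR adjusted p = 0.039). Leaving out WT replicate 2 (adjusted p = 0.263) or KO replicate 1 (0.0999) ended the Orc4 call, as did limma on RPKM (0.137). Orc4 shares exon positions with Mbd5 on the other strand, which fell (log2 fold change -0.82, edgeR adjusted p = 0.00194), and with Acvr2a, which was not called. Orc2 was at 5.51 and 5.93 RPKM in WT and at 7.55 and 8.12 RPKM in KO, above WT in both libraries but not called (log2 fold change 0.46, SE 0.16, edgeR adjusted p = 0.0747). Orc3 lay above WT in both KO libraries as well (0.25, SE 0.10, adjusted p = 0.136). Orc6 had the highest level of the complex per length, with 17.3 and 18.3 RPKM in WT and 17.6 and 13.5 RPKM in KO. Orc5 was the lowest in WT, with 2.22 and 2.58 RPKM in WT and 2.55 and 3.004 RPKM in KO. In KO replicate 2 Orc1, at 2.915 RPKM, was below Orc5. The groups overlapped for both Orc5 and Orc6.

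As a share of the summed RPKM of the 6 origin recognition genes, Orc1 made up 15.2% and 13.8% in WT and 5.41% and 5.97% in KO. Shares within a library add up to 100, so a lower share of Orc1 raises the others. The shares of Orc2, Orc3 and Orc4 were above both WT libraries in both KO libraries, that of Orc6 was below, and that of Orc5 overlapped.

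**Figure D3:**
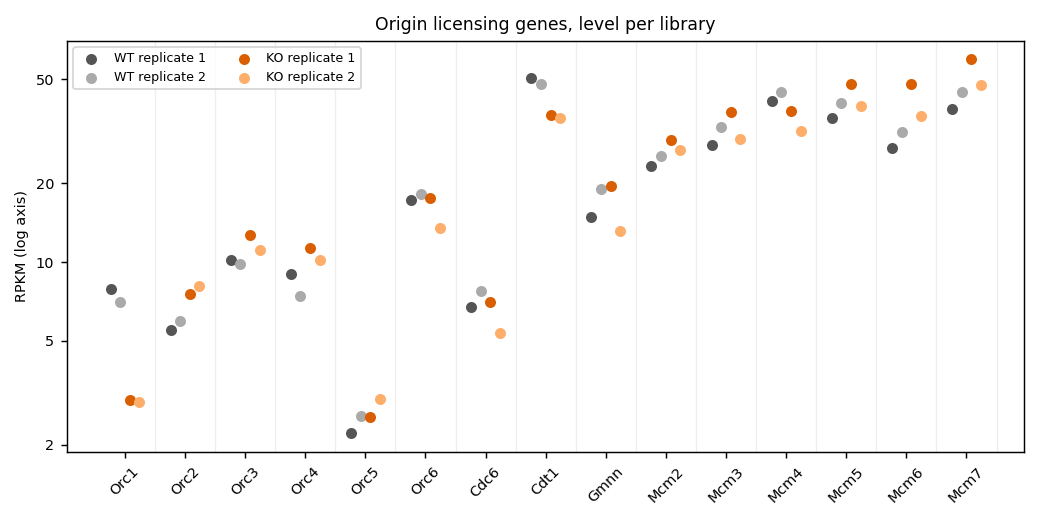
RPKM (log axis) of the 15 origin recognition, loading and MCM genes in each of the 4 libraries. Orc1, Cdt1 and Mcm4 are the genes with both KO libraries (orange) below both WT libraries (grey), and Orc1 shows the widest gap, from 7.03 RPKM in the lower WT library to 2.96 RPKM in the higher KO library.

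Among the loaders, Cdt1, which brings the MCM ring to origins, fell. Cdt1 (ENSMUSG00000006585.3, chromosome 8, 122568015 to 122573554, plus strand) stood at 50.7 and 48.2 RPKM in WT and at 36.6 and 35.5 RPKM in KO. Each group was tight and they did not overlap (log2 fold change -0.45, SE 0.08, edgeR adjusted p = 0.00274), and the call was kept under all 14 alternatives. In WT its level per length was exceeded among the members by Pcna alone. Cdc6, the ATPase that works with Cdt1, was at 6.76 and 7.75 RPKM in WT and at 7.06 and 5.36 RPKM in KO, and Gmnn (geminin), the inhibitor of Cdt1, at 14.9 and 19.0 RPKM in WT and at 19.5 and 13.2 RPKM in KO. For both, one KO library lay within the WT range or above it and the other below, and neither was called (log2 fold changes -0.22, SE 0.16, and -0.05, SE 0.21).

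The MCM helicase genes moved in both directions. Mcm6 and Mcm7 rose, Mcm4 fell, and Mcm2, Mcm3 and Mcm5 were not called. Mcm6 (ENSMUSG00000026355.11, chromosome 1, 128331590 to 128359664, minus strand) stood at 27.3 and 31.5 RPKM in WT and at 47.9 and 36.2 RPKM in KO. The KO libraries lay above WT and apart from each other (log2 fold change 0.52, SE 0.12, edgeR adjusted p = 0.0107), and the call was lost with limma on RPKM (0.108). Mcm7 (ENSMUSG00000029730.16, chromosome 5, 138164583 to 138172422, minus strand) stood at 38.7 and 44.8 RPKM in WT and at 59.6 and 47.4 RPKM in KO. The groups did not overlap, by a narrow margin for the lower KO library (log2 fold change 0.36, SE 0.11, edgeR adjusted p = 0.0383). Leaving out WT replicate 1 (adjusted p = 0.147) or KO replicate 1 (0.19) ended the Mcm7 call, as did limma on RPKM (0.166). Exons of Mcm7 overlap those of Cops6 on the other strand, which rose too (0.41, adjusted p = 0.0344), those of Ap4m1, which was not called, and Mir25 and Mir93, with 0 counts.

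Mcm4 (ENSMUSG00000022673.5, chromosome 16, 15623897 to 15637400, minus strand) had the highest mean level of the helicase genes in WT. It stood at 41.5 and 44.7 RPKM in WT and at 38.0 and 31.6 RPKM in KO. Both KO libraries lay below WT (log2 fold change -0.31, SE 0.09, edgeR adjusted p = 0.0483). That call was close to the threshold and was lost without WT replicate 2 (0.18) or KO replicate 2 (0.237), with library size scaling (0.0518), with upper-quartile factors (0.0582) and with limma on RPKM (0.136). Mcm2, the lowest in WT, stood at 23.2 and 25.5 RPKM in WT and at 29.3 and 26.8 RPKM in KO, above WT but not called (0.20, SE 0.08, adjusted p = 0.129). Mcm3 and Mcm5 had overlapping groups, with log2 fold changes of 0.14 (SE 0.11) and 0.20 (SE 0.10).

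The 6 proteins form a ring with equal numbers of each subunit, and the transcripts changed their proportions. Mcm4 made up 21.3% and 20.3% of the summed RPKM of the 6 genes in WT and 14.6% and 15.0% in KO. Mcm6 went from 14.1% and 14.3% to 18.4% and 17.1%, and Mcm7 from 19.9% and 20.4% to 22.9% and 22.5%. Each of these shares differed less between replicates than between groups, while Mcm2, Mcm3 and Mcm5 kept overlapping shares. Mcm4 had the highest share in WT replicate 1 and was level with Mcm7 in WT replicate 2, and in both KO libraries it stood below Mcm5, Mcm6 and Mcm7. The shares need no scaling between libraries, and no test was run on them. The summed level of the 6 genes was 857 and 970 CPM in WT and 1160 and 947 CPM in KO, so the totals overlapped.

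**Figure D4:**
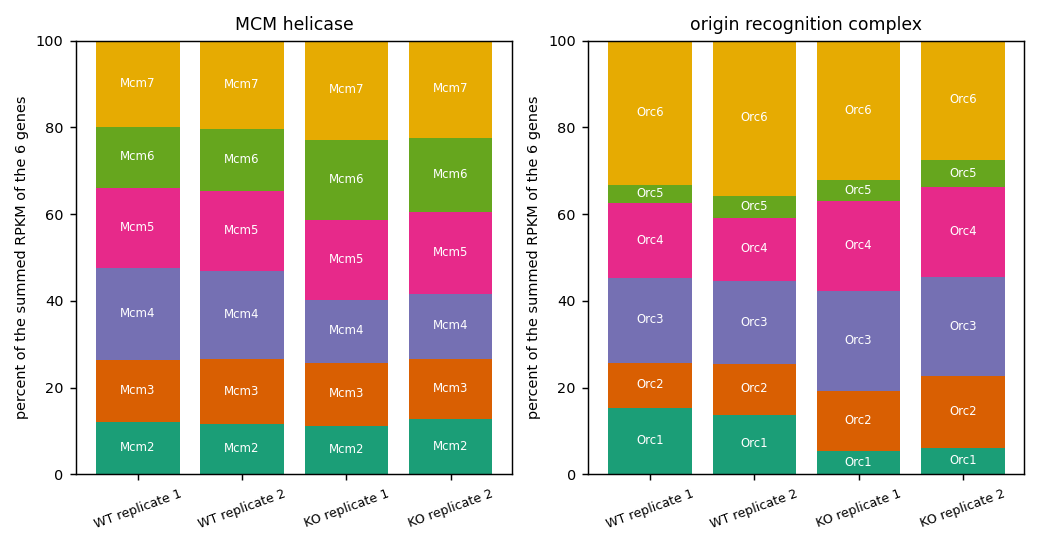
Share of each gene in the summed RPKM of the MCM helicase (left) and the origin recognition complex (right), 1 bar per library. The Mcm4 band narrows from 20.3% or more in WT to 15.0% or less in KO, and the Orc1 band from 13.8% or more to 5.97% or less.

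Among the 8 genes of helicase activation 0 were called, where 6.63% of all tested genes rose and 7.89% fell, a count near those shares. Fold changes were positive in 7 of the 8 (50.2% of all tested genes). Cdc45, a subunit of the active helicase, was at 7.69 and 7.75 RPKM in WT and at 13.0 and 9.09 RPKM in KO (log2 fold change 0.52, SE 0.20, edgeR adjusted p = 0.108). The KO libraries lay above WT but differed much more from each other than the WT libraries did. Of the 4 GINS genes, whose products join Cdc45 on the MCM ring, Gins1 was above WT in both KO libraries (0.57, SE 0.24, adjusted p = 0.138). Gins2 was below WT in both (-0.37, SE 0.23, adjusted p = 0.35), Gins4 was above, and Gins3 overlapped. Gins4 had the highest level per length, with 25.3 and 23.2 RPKM in WT and 29.2 and 26.05 RPKM in KO, and Gins2 the lowest, with 2.85 and 3.78 RPKM in WT and 2.54 and 2.58 RPKM in KO. Cdc7, the kinase that phosphorylates the MCM ring, lay above WT in both KO libraries (0.35, SE 0.16, adjusted p = 0.195), while its activator Dbf4 overlapped (0.07, SE 0.09). Mcm10, which acts at helicase start, was at 1.32 and 2.00 RPKM in WT and at 3.08 and 1.78 RPKM in KO, with groups that overlapped.

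In the polymerase alpha-primase complex, which lays down primers, Prim1 rose. Prim1, the catalytic primase subunit (ENSMUSG00000025395.14, chromosome 10, 128015168 to 128030037, plus strand), stood at 5.62 and 8.43 RPKM in WT and at 13.0 and 10.7 RPKM in KO. The groups did not overlap, although the WT libraries differed from each other (log2 fold change 0.75, SE 0.18, edgeR adjusted p = 0.0157). This was the largest increase among the members called. The Prim1 call was lost without WT replicate 1 (0.0662) and with limma on RPKM (0.0946). Its partner Prim2 was not called (0.25, SE 0.16, adjusted p = 0.363). Pola2, an accessory subunit, had the highest level of the complex per length, with 15.3 and 13.2 RPKM in WT and 16.9 and 13.9 RPKM in KO, and Pola1, the catalytic polymerase subunit, the lowest, with 2.64 and 2.66 RPKM in WT and 4.14 and 2.98 RPKM in KO. Neither was called.

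Pold3, an accessory subunit of polymerase delta, rose with both KO libraries clear of WT. Pold3 (ENSMUSG00000030726.16, chromosome 7, 100082111 to 100121565, minus strand) stood at 8.05 and 8.76 RPKM in WT and at 13.3 and 12.02 RPKM in KO, 1.51 times the WT level (log2 fold change 0.59, SE 0.12, edgeR adjusted p = 0.00569). It was the member that rose whose call was kept under all 14 alternatives. The catalytic subunit Pold1 was at 13.9 and 14.7 RPKM in WT and at 21.2 and 15.1 RPKM in KO (0.34, SE 0.13, adjusted p = 0.116), and Pold2, the highest of the delta and epsilon genes in WT, at 12.5 and 20.5 RPKM in WT and at 20.8 and 17.1 RPKM in KO. KO replicate 2 was barely above WT for Pold1, and the groups overlapped for Pold2. Of polymerase epsilon, Pole overlapped (0.36, SE 0.18). Pole2, the lowest of these genes in WT, was at 1.28 and 1.91 RPKM in WT and at 2.42 and 2.77 RPKM in KO without a call (0.70, SE 0.33, adjusted p = 0.186).

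Among the 6 genes of the sliding clamp and its loader 0 were called, where 6.63% of all tested genes rose and 7.89% fell, a count near those shares. Pcna, the clamp that tethers the polymerases, had by far the highest level of the 47 genes, 168 and 177 RPKM in WT and 172 and 168 RPKM in KO. The groups overlapped, and the log2 fold change was -0.02 with an SE of 0.07, the narrowest of any member, though 2 annotated pseudogenes named after Pcna could share its reads. Rfc1, the large loader subunit, was the highest of the loader genes, with 13.0 and 13.2 RPKM in WT and 18.7 and 14.4 RPKM in KO, above WT but not called (0.34, SE 0.11, adjusted p = 0.0653). Rfc2 and Rfc4 were also above WT in both KO libraries, and Rfc5 overlapped. Rfc3 was below, with 8.58 and 7.80 RPKM in WT and 6.65 and 7.001 RPKM in KO (-0.26, SE 0.16, adjusted p = 0.317). The single-strand binding genes Rpa1, Rpa2 and Rpa3 had log2 fold changes of -0.04 (SE 0.11), -0.22 (SE 0.11) and -0.0038 (SE 0.19), none called, and Rpa2 was below WT in both KO libraries, with 19.4 and 20.1 RPKM in WT and 17.9 and 15.9 RPKM in KO.

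Lig1, the ligase that seals Okazaki fragments, rose. Lig1 (ENSMUSG00000056394.17, chromosome 7, 13277283 to 13311433, plus strand) stood at 17.8 and 18.5 RPKM in WT and at 32.0 and 23.1 RPKM in KO. Both KO libraries exceeded WT, KO replicate 1 by more than KO replicate 2 (log2 fold change 0.60, SE 0.13, edgeR adjusted p = 0.0071), and the call was lost with limma on RPKM (0.0917). Zswim9, whose exons overlap Lig1 on the other strand, was not called. Fen1, the nuclease that trims the fragments before ligation, was at 1.19 and 1.37 RPKM in WT and at 1.95 and 1.20 RPKM in KO, the lowest level of all members, and its exons overlap Tmem258. Its log2 fold change of 0.30 had an SE of 0.42, the widest of any member.

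Timeless, which protects stalled forks together with Tipin, rose with an adjusted p close to the threshold. Timeless (ENSMUSG00000039994.15, chromosome 10, 128232065 to 128252941, plus strand) stood at 4.76 and 6.69 RPKM in WT and at 10.2 and 7.11 RPKM in KO. The lower KO library was just above the higher WT library (log2 fold change 0.60, SE 0.19, edgeR adjusted p = 0.0494). The call was lost without WT replicate 1 (0.158) or KO replicate 1 (0.291), with library size scaling (0.0535), with RLE factors (0.0507) and with limma on RPKM (0.192). Exons of Timeless overlap the antisense transcript Gm26847, which had at most 22 counts. Tipin was at 10.8 and 11.4 RPKM in WT and at 16.5 and 14.9 RPKM in KO. These groups were further apart for their spread, and Tipin missed the threshold (0.50, SE 0.16, adjusted p = 0.0561) but passed it in DESeq2 (0.0441), limma-voom (0.0393) and limma on RPKM (0.0471). It passed under 6 of the 14 alternatives, and missed with library size scaling (0.0597), RLE factors (0.0573), upper-quartile factors (0.0515) and the replicate block (0.0568). The histone chaperone genes Chaf1a and Chaf1b, subunits of chromatin assembly factor 1, had overlapping groups, with Chaf1a at 7.92 and 8.97 RPKM in WT and at 14.4 and 8.43 RPKM in KO.

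Replication genes were mostly higher in KO replicate 1 than in KO replicate 2. KO replicate 1 exceeded KO replicate 2 in 42 of 47 members (89.4%, against 51.8% of all tested genes), and WT replicate 2 exceeded WT replicate 1 in 37 of 47 (78.7%, against 51.3%). The median log2 ratio to the WT mean was 0.34 in KO replicate 1 and 0.07 in KO replicate 2, and -0.06 and 0.06 in WT replicates 1 and 2. KO replicate 1 was above both WT libraries in 35 members and below both in 6. Among all 16588 tested genes it was above both in 6661 and below both in 6416. KO replicate 2 was above both in 23 members and below both in 13, against 6307 and 6510 of all tested genes. All 7 members that rose were higher in KO replicate 1 than in KO replicate 2. The 3 that fell lay below both WT libraries in each KO library, and Orc1 and Cdt1 fell by nearly the same amount in both. Without KO replicate 1 the median log2 fold change of the 47 genes was 0.09, and without KO replicate 2 it was 0.34.

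**Figure D5:**
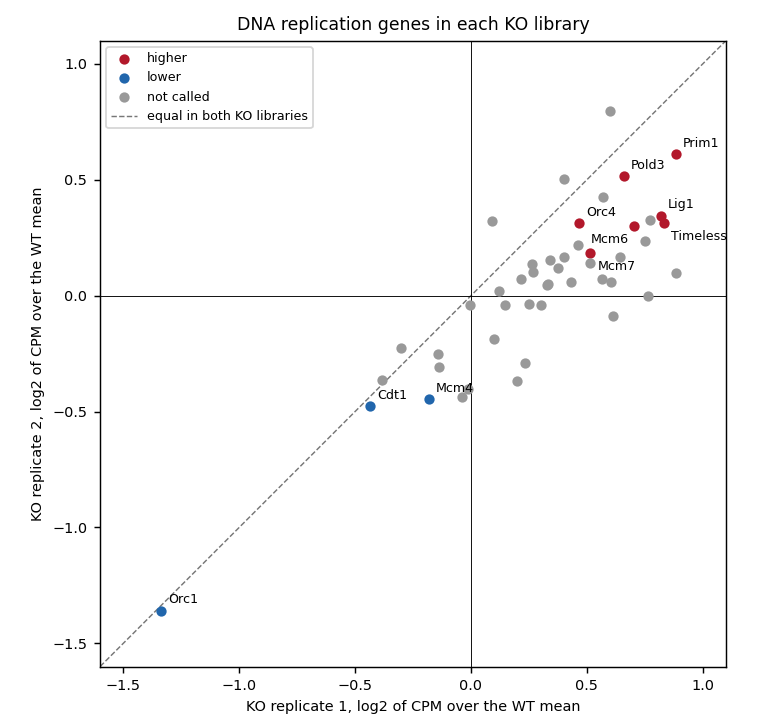
Each of the 47 replication genes by its log2 ratio of CPM to the WT mean in KO replicate 1 (horizontal) and KO replicate 2 (vertical), with the dashed line where both are equal. Most points (42 of 47) lie below the line, and Orc1 and Cdt1 lie close to it.

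Other cell cycle genes were read from lists outside the 47. Of 26 genes of mitosis, a later phase than S phase, 17 rose (65.4%, against 6.63% of all tested genes) and 0 fell (against 7.89%), and limma on RPKM left 4. The smallest adjusted p values in that list were those of Bub1b, a spindle checkpoint kinase (log2 fold change 0.80, edgeR adjusted p = 0.000505), the proliferation marker Mki67 (0.62, 0.000519) and the kinesin Cenpe (0.71, 0.00108). The list median was 0.60. Without KO replicate 1, 10 rose. Their levels followed the same order of libraries, with KO replicate 1 above KO replicate 2 in 25 of 26 and median log2 ratios to the WT mean of 0.80 and 0.34. The part of these proportions in the replication results was not tested.

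Among all tested genes 6.63% rose and 7.89% fell, and the counts of the further lists are to be read against these shares. Of 29 other replication factors 6 rose (20.7%) and 0 fell (median 0.12), and limma on RPKM left 2. The smallest adjusted p was that of Top2a, a topoisomerase (0.72, edgeR adjusted p = 0.00168). Next came Ssrp1, a subunit of the FACT histone chaperone (0.40, 0.00638), and Chtf8, part of an alternative clamp loader (0.38, 0.00678). Top2a, Ssrp1 and Chtf8 each overlap other annotated genes, in the case of Chtf8 Has3 and another gene of its own name. Of 19 tested genes of deoxynucleotide supply 4 rose (21.1%) and 1 fell (5.26%), with a median of 0.26, and limma on RPKM called none of the list (0 higher and 0 lower). Among them Rrm2, a subunit of ribonucleotide reductase, rose (0.72, 0.00273), Tk1, thymidine kinase, rose (0.80, 0.00877), and Umps, which makes uridine monophosphate, fell (-0.56, 0.0105). Leaving out WT replicate 1 gave 2 that rose in this list, and leaving out KO replicate 2 gave 7. Of 16 replication checkpoint genes 1 rose (6.25%, near the share of all tested genes). It was Rad9a (0.78, 0.00105), which overlaps Ppp1ca. In that list 4 rose when WT replicate 2 was left out and 3 when KO replicate 2 was. Of 13 E2F and pocket protein genes 3 rose (23.1%) and 0 fell, with a median of 0.07 and with 7 positive and 6 negative fold changes. Those that rose were Tfdp1, the dimer partner of E2F proteins (0.33, 0.0165), E2f2 (0.28, 0.0228) and E2f4 (0.31, 0.0258). Without WT replicate 1 none of the 3 calls held, and limma on RPKM left 1.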

How the data were processed

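The samples were 4 RNA sequencing libraries of total RNA from sorted thymocytes, grouped by the genotype in the labels (WT and KO, 2 libraries each). The authors deposited whole-number read counts per gene for each library, made with FastQC 0.11.5, cutadapt 1.17, STAR 2.6.0a and HTSeq 0.6.1 on GRCm38 (mm10), per the submitters' processing notes, which also name DESeq2 1.24.0. The authors also deposited an RPKM table, whose values equal the count divided by gene length and library total within a relative tolerance of 1e-06. For strand setting and annotation release, nothing is given in the sources used here. Reads of overlapping genes therefore cannot be told apart, and 18 of the 47 members share exon positions with another annotated gene.

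Counts were tested with edgeR 4.0.16 in R 4.3.3 (quasi-likelihood, robust, TMM factors 0.993 to 1.01, filterByExpr, genotype as the only term, two-sided, Benjamini-Hochberg adjustment over 16588 genes). Standard errors came from the log2 fold change and its F statistic. CPM is the count scaled by the library total. Libraries of one group were not repeats of 1 library, since chi-square of their counts per degree of freedom reached 14.2 for WT and 16.0 for KO, against 48.0 to 58.5 between groups. Alternatives were library size, RLE and upper-quartile scaling, no filter on low counts, a mean of at least 1 CPM, DESeq2 1.42.0, limma-voom (limma 3.58.1), a replicate block, leaving out each library, and limma on log2 of RPKM plus 0.5 or 0.1 where the mean RPKM was 1 or more.

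All members were accounted for, every called member was named, and up to 3 called genes were named per list. Values per library went to called members and to those highest or lowest per length in their complex, except Rfc2, Rpa1 and Chaf1b. A few further members were given values after these had been seen. Some markers of the mature thymocyte and B cell lists are not reported here, and the counts and sums of those lists leave them out. The members, lists and rules were chosen with earlier results of these data known. Coordinates are those of GENCODE release 21 for mouse, matched to 53620 of 53715 gene identifiers, and promoter sequences are from RefSeq. Plots were made with matplotlib 3.10.9 under Python 3.11.15.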

Additional observations from a re-analysis of the deposited data

How the results depend on the processing

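All 47 fold changes kept their sign under the alternatives that used all 4 libraries, except that of Rpa3, which was 0.0081 with upper-quartile factors. Of the 10 calls, 5 were kept whichever library was left out (Orc1, Cdt1, Mcm6, Pold3 and Lig1), and 3 under all 14 alternatives (Orc1, Cdt1 and Pold3). With limma on RPKM plus 0.5 or 0.1, 483 and 477 of all genes were higher and 621 and 615 lower. Under both pseudocounts 2 replication genes were higher (Pold3, and Tipin in addition), as were 2 other replication factors, 0 genes of deoxynucleotide supply (0 lower), 4 mitosis genes and 1 E2F or pocket protein gene. Without a filter on low counts 11 replication genes and 3 checkpoint genes were higher. The cause of these shifts was not tested.

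Leaving out 1 library, with the lone remaining library assumed to vary like the other group, gave 4 to 18 replication genes higher and a median log2 fold change of 0.0918 to 0.338. It gave 2 to 7 genes of deoxynucleotide supply higher and 1 to 2 lower, 1 to 4 checkpoint genes, 10 to 23 mitosis genes and 0 to 3 E2F or pocket protein genes higher, and 0 to 1 of the last lower. Members without a call changed sign there: Gmnn (-0.35 to 0.20), Mcm3 (-0.0216 to 0.30), Pola2 (-0.0152 to 0.25), Pold2 (-0.11 to 0.61), Pcna (-0.0494 to 0.0176), Rfc5 (-0.0744 to 0.22), Rpa1 (-0.17 to 0.10), Rpa3 (-0.27 to 0.23) and Fen1 (-0.0671 to 0.61).

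Over all tested genes, same-numbered libraries deviated from their group means with a correlation of -0.05. This shows no shared shift by replicate number, but it cannot exclude that the libraries were paired. With the replicate number as a block 9 replication genes were higher (Pold1 and Rfc1 in addition), 3 lower and 2 checkpoint genes higher. Counts, and with them precision, were lowest for Fen1 and Pole2, with 103 to 175 and 132 to 290 counts per library.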
